A study of Mus musculus with 6 samples.

Results

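The brighter microRNA genes of mouse aorta were the 89 genes, of 483 microRNA genes and 22184 genes with a single symbol, whose symbol begins with Mir followed by a number or let-7 and whose brightest probe set averaged at least 6 log2 over the 6 arrays. Aortas of eNOS-deficient mice, which lack the endothelial nitric oxide synthase encoded by Nos3, were set against aortas of age-matched wild-type mice. Each group held 3 samples on 1 Affymetrix array each, named here by the numbers of their titles (eNOS-deficient 11, 15 and 19, and wild type 2, 3 and 5). The sources used here give no age, sex, strain or targeted allele, and do not say whether each sample came from its own animal, so every p-value reflects the spread among these 6 samples alone. Values are log2 signals from RMA, a background correction, quantile normalization and summary of probes, so a difference of 1 is a factor of 2. The genes were thus chosen by their mean level over both genotypes, which is given as a description. That choice was made with earlier results of these data known, so the shares given below only describe the set. Mir301b was also named as an inclusion with its difference already known. For 13 genes 1 genotype alone reached 6 log2 on average, so their membership depended on the higher group. All 3 host transcripts among them (Mir1a-1hg, Mir100hg and Mir99ahg) are long noncoding RNAs that carry microRNA hairpins, and the other 86 are annotated as microRNA genes.

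MicroRNA genes are transcribed as long primary RNAs, often inside the introns of other genes. The nuclear enzyme Drosha, with its partner Dgcr8, cuts out a hairpin, exportin-5 carries it to the cytoplasm, and Dicer trims it to a short duplex. The mature strand guides an Argonaute protein to messenger RNAs, mainly through its seed, bases 2 to 8. In the vessel wall, miR-143 and miR-145 are known as smooth muscle microRNAs and miR-126 as an endothelial one. The labels do not say which of these RNA forms a probe set reads, so each signal is called that of the microRNA gene. Signals of different probe sets do not rank amounts of RNA.

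Hairpin sequences for 62 of the genes and mature sequences for 66 were matched in RefSeq (GRCm38.p6). The first set shown belongs to Mir301b, the gene with the lowest difference, and to Mir130b, which lies 257 bases away on the same strand. The hairpins lie at chr16:17124400-17124496 and chr16:17124061-17124142 on the minus strand, and capitals mark AGUGCAA, the seed of miR-130b-3p, which both hold. Over their alignment the hairpins were 59.6% identical.
Mir301b hairpin: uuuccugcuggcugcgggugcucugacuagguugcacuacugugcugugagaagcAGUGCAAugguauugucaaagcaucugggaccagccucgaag
Mir130b hairpin: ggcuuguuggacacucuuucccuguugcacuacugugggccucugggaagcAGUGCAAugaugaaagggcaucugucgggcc

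The second set holds mature microRNAs of genes that were lower in eNOS-deficient aorta at an unadjusted p under 0.05, with the seed in capitals. Mir15a and its cluster mate Mir16-1 are shown together because miR-15a-5p and miR-16-5p share the seed AGCAGCA. Their positions are chr14:61632075-61632096 for miR-15a-5p and chr14:61631936-61631957 for miR-16-5p (minus strand), and chr5:139369708-139369730 for miR-339-5p (minus strand). The others lie at chr4:109017669-109017690 for miR-761 and chr2:117185151-117185172 for miR-674-5p (plus strand), and at chr13:58392841-58392863 for miR-7a-5p and chr3:89227126-89227147 for miR-92b-3p (minus strand).
mmu-miR-15a-5p: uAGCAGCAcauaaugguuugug
mmu-miR-16-5p: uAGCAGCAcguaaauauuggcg
mmu-miR-339-5p: uCCCUGUCcuccaggagcucacg
mmu-miR-761: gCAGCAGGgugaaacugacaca
mmu-miR-674-5p: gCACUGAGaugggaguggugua
mmu-miR-7a-5p: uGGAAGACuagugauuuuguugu
mmu-miR-92b-3p: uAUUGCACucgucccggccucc

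The third set holds the hairpins of Mir680-1 and Mir680-2, shown because both genes stood apart on the same array. They lie at chr6:129691535-129691643 and chrX:144297790-144297899 on the plus strand, capitals mark the mature miR-680, and the hairpins were 82.8% identical over their alignment.
Mir680-1 hairpin: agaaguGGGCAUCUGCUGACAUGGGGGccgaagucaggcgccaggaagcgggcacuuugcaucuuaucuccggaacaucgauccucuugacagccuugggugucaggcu
Mir680-2 hairpin: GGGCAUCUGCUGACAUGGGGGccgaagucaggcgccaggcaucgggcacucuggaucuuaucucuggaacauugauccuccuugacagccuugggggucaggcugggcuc
Among the 103 matched mature sequences there were 96 distinct seeds, and 7 seeds were shared by more than 1 of the genes. Shared seeds joined Mir181c with Mir181d, Mir99a with Mir99b, Mir365-1 with Mir365-2, Mir674 with Mir3473d and Mir680-1 with Mir680-2.

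Some facts of the whole series touch these genes. Array medians over all probe sets were 5.55 to 5.59 log2 in the eNOS-deficient group, against 5.61 to 5.68 log2 in wild type. Over the genes tested below, the medians were not lower in the eNOS-deficient group, at 6.62 to 6.69 against 6.54 to 6.63 in wild type. The smooth muscle actin gene Acta2 was higher in each eNOS-deficient sample (12.55, 12.59 and 12.80) than in any wild-type sample (12.39, 12.30 and 12.41). Another smooth muscle gene, Myh11, differed by -0.27, with overlapping groups. For 7 smooth muscle markers, the array means differed by 0.28, also with overlap. Nos3 measured 7.13, 7.39 and 7.27 in the eNOS-deficient samples in the order above, against 7.99, 7.88 and 7.36 in the wild-type samples, so wild type 5 lay inside the eNOS-deficient range. Where its probes lie relative to the deletion is unknown here, and the signal therefore does not check the labels. Array means of 7 macrophage markers ran from 8.65 to 9.11 in the eNOS-deficient group, against 7.97 to 8.37 in wild type. Those of 6 fibroblast markers ran from 9.69 to 9.97, against 8.91 to 9.58 in wild type. Those of 7 cell cycle markers ran from 5.48 to 5.90, against 6.25 to 6.57 in wild type. The mean of 3 Y-linked genes was 7.76, 4.71 and 8.0 in the eNOS-deficient samples, against 3.63, 3.54 and 3.47 in wild type. All eNOS-deficient samples were thus higher in Y-linked genes, with eNOS-deficient 15 well below the other two, and genotype cannot be told apart from this difference in Y-linked signal between the groups. In whole aorta, fewer cells of a type and less RNA per cell cannot be told apart, and the part these shifts have in the values below was not tested.

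Differences between genotypes pointed mostly downward among the brighter microRNA genes. Of the 89, 60 had a negative and 29 a positive difference, with a median of -0.18 log2, while 43.4% of the 18008 genes tested had a negative difference and their median was 0.04. In limma, a linear model that shares variance information across genes, 1 of the 89 passed a Benjamini-Hochberg adjusted p under 0.05 over all 18008 genes, where 0.0278% of all genes did. That gene was Mir301b, which was lower, as were 0.0167% of all genes at that threshold. Mir301b was included with its difference already known, so this count says nothing about the set. Of the other 88 genes, 0 passed (lowest limma adjusted p = 0.198). At an unadjusted p under 0.05, 16 of the 89 (18%) were lower and 0 higher, where 3.72% of all genes were lower and 7.86% higher. The eNOS-deficient arrays lay wholly below the wild-type arrays for 21 of the 89 (23.6%) and wholly above for 0, against 6.47% and 13.1% of all genes. Among the 8 genes that reached 6 log2 on average in wild type alone (Mir301b, Mir187, Mir7-1, Mir874, Mir1190, Mir666, Mir340 and Mir680-1), a negative difference was set by the choice, and 3 of the 16 were among them. Likewise 5 genes reached it in eNOS-deficient aorta alone, and of these 0 were among the 16. For the 76 genes at that level in both genotypes, 52 differences were negative, with a median of -0.17, and 13 were lower and 0 higher at an unadjusted p under 0.05. With arrays centred on their medians, the eNOS-deficient arrays lay wholly below for 17 of the 89 genes and wholly above for 3. In that setting the groups did not overlap for 20 of the 89 genes in all and for 3945 of all 18008 genes, which are near shares. The count over all genes was not split by direction, so the 17 and 3 have no matching background. Averaged over the 89 genes, the arrays stood at 7.15, 7.10 and 7.0 log2 for eNOS-deficient 11, 15 and 19, against 7.31, 7.22 and 7.34 for wild type 2, 3 and 5. Wild type 5 was the highest array for 31 of the 89 genes, and eNOS-deficient 19 the lowest for 27.

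The downward shift was not confined to the brighter genes. Of the 394 microRNA genes under 6 log2, 167 passed the filter on dim genes and were tested. Their median difference was -0.12, with 117 negative, 18 (10.8%) lower and 3 (1.8%) higher at an unadjusted p under 0.05, and 0 past the adjusted threshold. Brighter and dimmer microRNA genes were not tested against each other. At the edge of the level threshold, Mir5120, Mir1938 and Mir680-1 lay just inside with means of 6.02, 6.02 and 6.0, and Mir3962, Mir721 and Mir191 just outside with 5.99, 5.97 and 5.94.

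**Figure D1:**
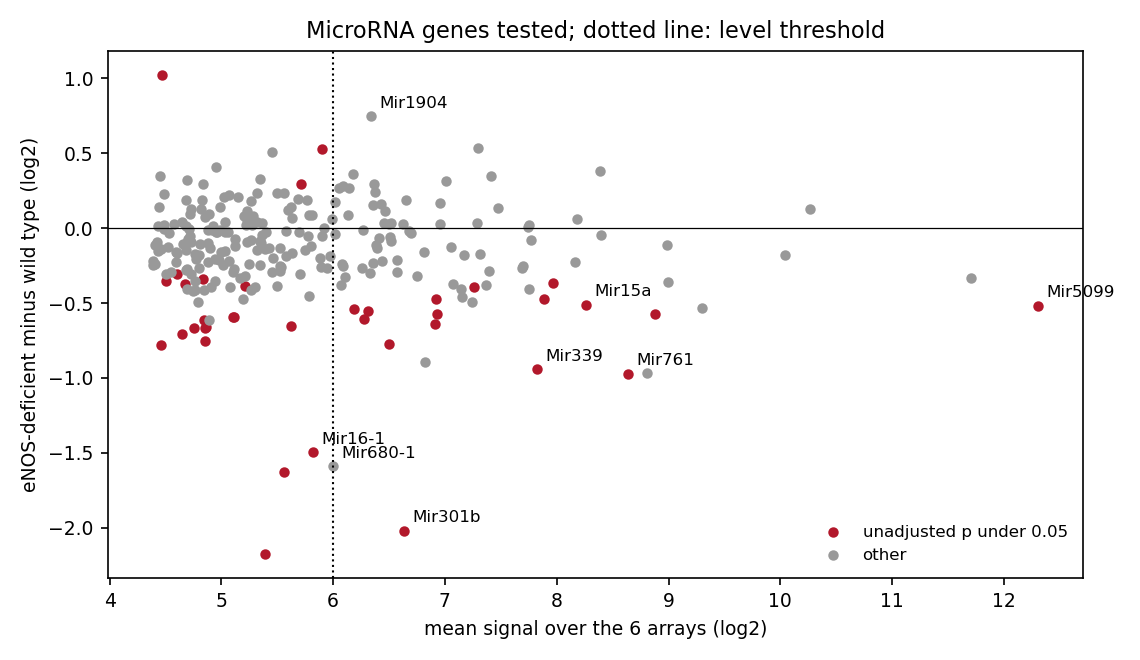
Mean signal over the 6 arrays (log2) against the eNOS-deficient minus wild-type difference (log2) for the microRNA genes tested, each point 1 gene, red where the unadjusted limma p was under 0.05. Right of the dotted line at 6 log2, the 16 red points all lie below 0, with Mir301b lowest at -2.02.

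Mir301b stood at 5.48, 5.71 and 5.68 log2 on the eNOS-deficient arrays, against 7.87, 7.23 and 7.82 on the wild-type arrays. The groups were separated by a gap wider than the spread within either of them. The eNOS-deficient mean was 5.62 ± 0.13, against 7.64 ± 0.36 in wild type (SD, n = 3 each), a difference of -2.02 log2 (standard error 0.19, 95% interval -2.47 to -1.57, limma adjusted p = 0.0419). In linear signal Mir301b was 4.05-fold lower in eNOS-deficient aorta. Its size changed little when any single array was left out (-1.90 to -2.22), but the adjusted p was then 0.0650 to 0.381, so the call rests on all 6 arrays. Without a dim filter, with repeated quantile normalization and with averaged probe sets it was 0.0540, 0.0701 and 0.0513. miR-301b belongs to the miR-130 and miR-301 family, whose members share the seed printed above.

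The cluster mate and the overlapping gene of Mir301b gave other values. Mir130b, from the neighbouring hairpin, measured 4.62, 4.06 and 4.38 on the eNOS-deficient arrays, against 3.96, 4.92 and 4.26 on the wild-type arrays. These ranges overlapped, and with a mean under the dim filter of 4.38 log2 Mir130b was not tested. The protein-coding gene 2610318N02Rik, which overlaps Mir301b on the same strand, differed by -0.25 (standard error 0.22, limma adjusted p = 0.700). Of the same seed family, Mir721 measured 5.88 ± 0.13 in eNOS-deficient aorta, against 6.07 ± 0.018 in wild type (limma adjusted p = 0.579), without overlap. Mir130a and Mir301 averaged 2.88 and 3.29 in eNOS-deficient aorta, against 2.83 and 3.47 in wild type, under the filter.

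**Figure D2:**
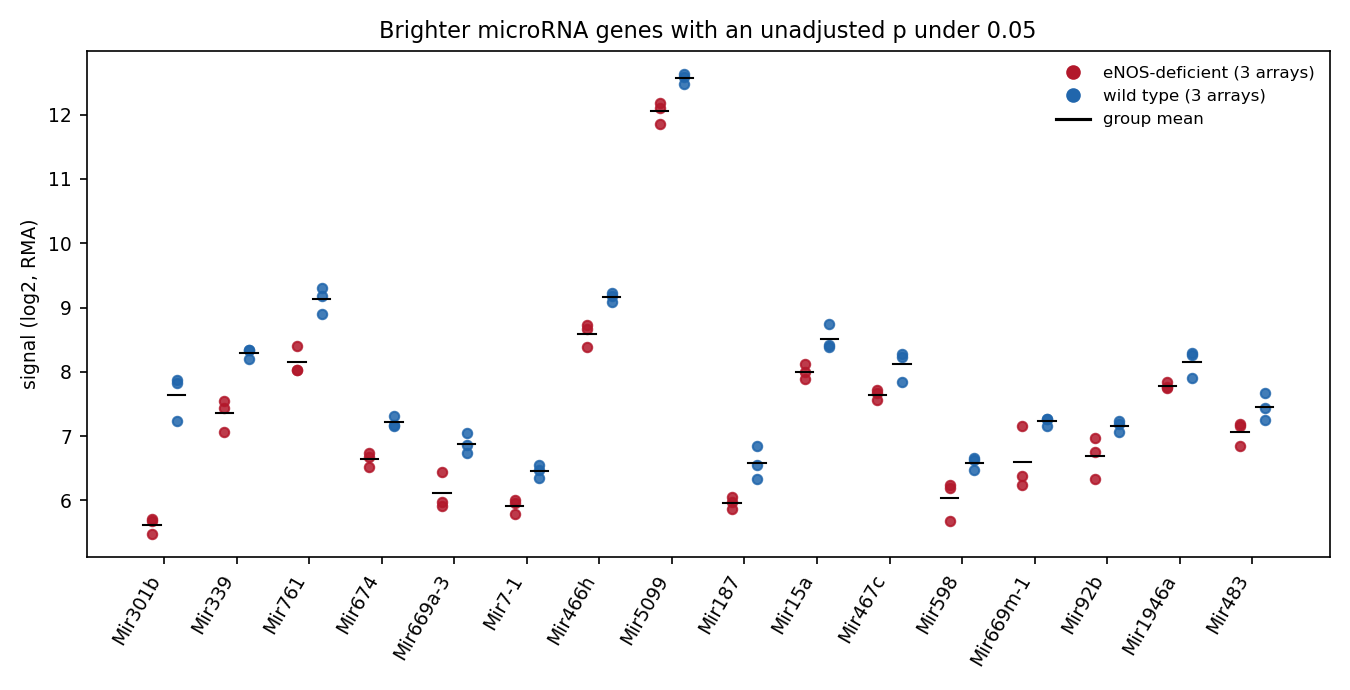
Signal (log2) of the 16 brighter microRNA genes with an unadjusted limma p under 0.05, in order of p, with 3 eNOS-deficient arrays (red) left of 3 wild-type arrays (blue) and group means as lines. In each gene the red points lie below the blue ones, and the separation is widest for Mir301b.

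After Mir301b, the smallest p-values belonged to genes that did not pass over all genes. Mir339 had 7.44, 7.55 and 7.07 log2 on the eNOS-deficient arrays, against 8.34, 8.21 and 8.34 on the wild-type arrays. Its groups did not overlap, and the difference was -0.94 (standard error 0.15, limma adjusted p = 0.198). Mir761, whose mature sequence is printed above, had 8.03, 8.41 and 8.03 in eNOS-deficient aorta, against 9.18, 8.90 and 9.30 in wild type. That is a difference of -0.97 (standard error 0.16, limma adjusted p = 0.198), again without overlap. Mir674 stood at 6.67, 6.52 and 6.73, against 7.17, 7.16 and 7.31 in wild type, a difference of -0.57 with little spread inside either group. Mir7-1, the gene of miR-7a, stood at 5.80, 6.0 and 5.96, against 6.55, 6.47 and 6.35 in wild type, a difference of -0.54. Mir5099, with a mean of 12.31, stood at 12.11, 11.85 and 12.19 in eNOS-deficient aorta, against 12.58, 12.48 and 12.64 in wild type. Its difference of -0.52 (limma adjusted p = 0.281) was likewise without overlap. Mir187, on chromosome 18, averaged 5.97 ± 0.096 in eNOS-deficient aorta, against 6.58 ± 0.26 in wild type. The rest of the 16 outside the cluster described next were Mir598 (-0.55), Mir92b (-0.47), Mir483 (-0.39), Mir1946a (-0.37) and Mir15a. A further 5 genes had no overlap but an unadjusted p of at least 0.05, among them Mir210, the microRNA induced by low oxygen, at 6.59 ± 0.086 against 6.91 ± 0.19 in wild type, and Mir449b at 11.54 ± 0.21 against 11.88 ± 0.12 in wild type. The other 3 are Mir680-1, Mir680-2 and Mir467e, described with the single arrays.

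Mir15a is the gene above 6 log2 in the miR-15a and miR-16-1 cluster, which lies in the noncoding host gene Dleu2 and is known for restraining the cell cycle. It had 7.89, 8.0 and 8.13 log2 on the eNOS-deficient arrays, against 8.74, 8.38 and 8.42 on the wild-type arrays, a difference of -0.51 (standard error 0.14, limma adjusted p = 0.292) without overlap. Its cluster mate Mir16-1, with a mean under 6 log2, had 5.03, 4.93 and 5.25, against 6.69, 6.31 and 6.71 in wild type. Its difference was -1.50 (standard error 0.16, limma adjusted p = 0.0730). Dleu2 itself, read by its own probe set, differed by -0.35 (standard error 0.14, limma adjusted p = 0.411), also without overlap. All 3 features of the locus thus lay lower on each eNOS-deficient array than on any wild-type array, and none passed the test over all genes. Elsewhere in the genome, genes with the seed AGCAGCA gave -0.70 for Mir195a and -0.39 for Mir16-2, neither past, and -0.17 for Mir15b and -0.01 for Mir497, both under the dim filter.

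A cluster on chromosome 2 gave the largest group by position. In RefSeq, 22 microRNA genes on the array overlap Sfmbt2, a Polycomb-related gene that in mouse carries a large repeated microRNA cluster, and 7 of them were among the 89. Of these 7, 5 had a negative difference, with a median of -0.57 over the 7. At an unadjusted p under 0.05, 4 were lower, and the eNOS-deficient arrays lay wholly below for 5. Over all genes these shares were 3.72% and 6.47%. Over all 22 genes of the cluster, 14 had a negative difference and the median was -0.11, with 10 of the 22 past the dim filter. Mir669a-3 had 6.44, 5.92 and 5.98 on the eNOS-deficient arrays, against 6.87, 7.05 and 6.74 on the wild-type arrays (difference -0.77, limma adjusted p = 0.236). Mir466h had 8.72, 8.67 and 8.38, against 9.18, 9.09 and 9.23 in wild type (difference -0.57, limma adjusted p = 0.243). Both genes had groups that did not overlap. Mir467c (-0.47) and Mir669m-1 (-0.64) were lower too, while Mir297a-4 and Mir466b-2 differed by 0.11 and 0.27. For Mir669m-1, eNOS-deficient 11 stood at 7.15, close to the wild-type values of 7.27, 7.16 and 7.26, and the other eNOS-deficient arrays at 6.38 and 6.24. Sfmbt2 itself averaged 4.29, under the dim filter, and differed by -0.21. Near-identical copies fill this cluster, and the sources used here do not say whether the probes tell them apart. Without these 7 genes, the median of the other 82 was -0.17.

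The genes that the brighter microRNA genes overlap had differences centred near 0. A protein-coding gene overlapped 55 of the 89, only long noncoding RNAs overlapped 11, and no gene of these kinds overlapped 23. The median difference was -0.18, -0.13 and -0.29 in these classes. For 50 pairs, made of 49 microRNA genes and 49 overlapping genes, both sides were tested. In them the overlapping genes had a median difference of 0.05, with 21 negative and 29 positive. At an unadjusted p under 0.05, 1 was lower and 4 higher, which is near the 3.72% and 7.86% of all genes. Of the microRNA genes in these pairs, 31 were negative, with a median of -0.07. Neither side was tested against the other. The 4 higher genes were B4galt1 (0.34) over Mir5123, Tango2 (0.56) over Mir185, Atg5 (0.31), an autophagy gene, over Mir1929, and Fam114a1 (0.33) over Mir574. Their microRNA genes differed by -0.11, -0.29, -0.06 and 0.03, all with overlapping groups. In limma the lowest adjusted p among the overlapping genes was 0.387.

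Of the genes with an unadjusted p under 0.05, 7 had a tested overlapping gene. For Mir761, the protease gene Nrd1 differed by -0.06 (standard error 0.12). For Mir339, 3110082I17Rik differed by 0.06 (standard error 0.13). For Mir7-1, Hnrnpk, an RNA-binding protein gene, differed by 0.16 (standard error 0.13), and for Mir483, the growth factor gene Igf2 differed by -0.0042. In these cases the overlapping gene's difference was smaller than or close to its standard error. Only Dleu2, over Mir15a, had an unadjusted p under 0.05 among these 7.

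**Figure D3:**
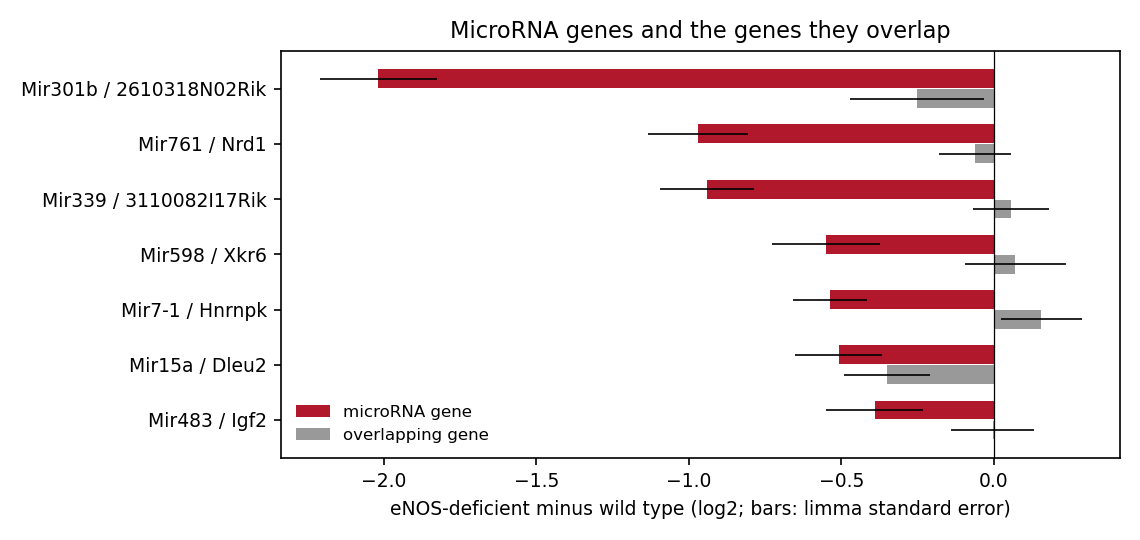
Difference between eNOS-deficient and wild-type aorta (log2, bars with limma standard errors) for 7 microRNA genes (red, unadjusted p under 0.05) and the gene each overlaps (grey). The grey bars run from -0.35 for Dleu2 to 0.16 for Hnrnpk, while the red bars run from -2.02 for Mir301b to -0.39 for Mir483.

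On single arrays, 4 genes stood apart by more than 1 log2 from the next. Mir680-1 had 5.42, 5.33 and 4.87 log2 on the eNOS-deficient arrays, against 5.81, 5.79 and 8.80 on the wild-type arrays. Mir680-2 had 8.07, 8.57 and 8.33, against 8.71, 8.74 and 10.43 in wild type. Mir467e, of the Sfmbt2 cluster, had 6.38, 6.31 and 6.45, against 6.49, 6.75 and 8.57 in wild type. In each case wild type 5 alone was high, and the other wild-type arrays lay just above the eNOS-deficient ones. The differences were -1.59, -0.97 and -0.89 with all arrays (limma adjusted p = 0.478, 0.464 and 0.525) and -0.59, -0.40 and -0.24 without wild type 5. On the same arrays, the mean of 10 squamous epithelium markers was 5.12, 4.77 and 4.92 in eNOS-deficient aorta, against 6.14, 5.27 and 9.02 in wild type, with 1 of the 10, Sprr3, under the dim filter. Among them the keratin gene Krt4 ran from 4.41 to 5.16 in eNOS-deficient aorta, against 6.18 to 13.33 in wild type. Krt13 likewise had no overlap, while Krt14, Dsg3, Krt6a and Trp63 overlapped. Krt14 stood at 5.38, 5.04 and 5.30, against 5.40, 5.19 and 7.38 in wild type. Wild type 2, second highest in the epithelial marker mean, lay near wild type 3 in the 3 microRNA genes. The part of the epithelial markers in these 3 microRNA signals was not tested.

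The fourth was Mir1a-1hg, the host transcript of the muscle microRNAs miR-1a-1 and miR-133a-2. It had 9.09, 6.88 and 6.73 in eNOS-deficient aorta, against 6.67, 6.86 and 7.57 in wild type. The difference was 0.53 with all arrays (limma adjusted p = 0.782) and -0.23 without eNOS-deficient 11, so its direction rests on that array. Skeletal muscle markers (10 genes, 0 under the dim filter) averaged 11.62, 10.18 and 10.14 in eNOS-deficient aorta, against 10.08, 9.18 and 11.09 in wild type, with eNOS-deficient 11 and wild type 5 highest, as for Mir1a-1hg. Cardiac muscle markers (10 genes) averaged 7.47, 6.41 and 6.66 in eNOS-deficient aorta, against 6.99, 6.82 and 7.34 in wild type. Their part in Mir1a-1hg was not tested. Mir1a-1, whose hairpin lies in that transcript, had 4.05 on eNOS-deficient 11, 2.71 and 2.65 on eNOS-deficient 15 and 19, and 2.17, 2.36 and 2.60 in wild type, all under the dim filter.

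**Figure D4:**
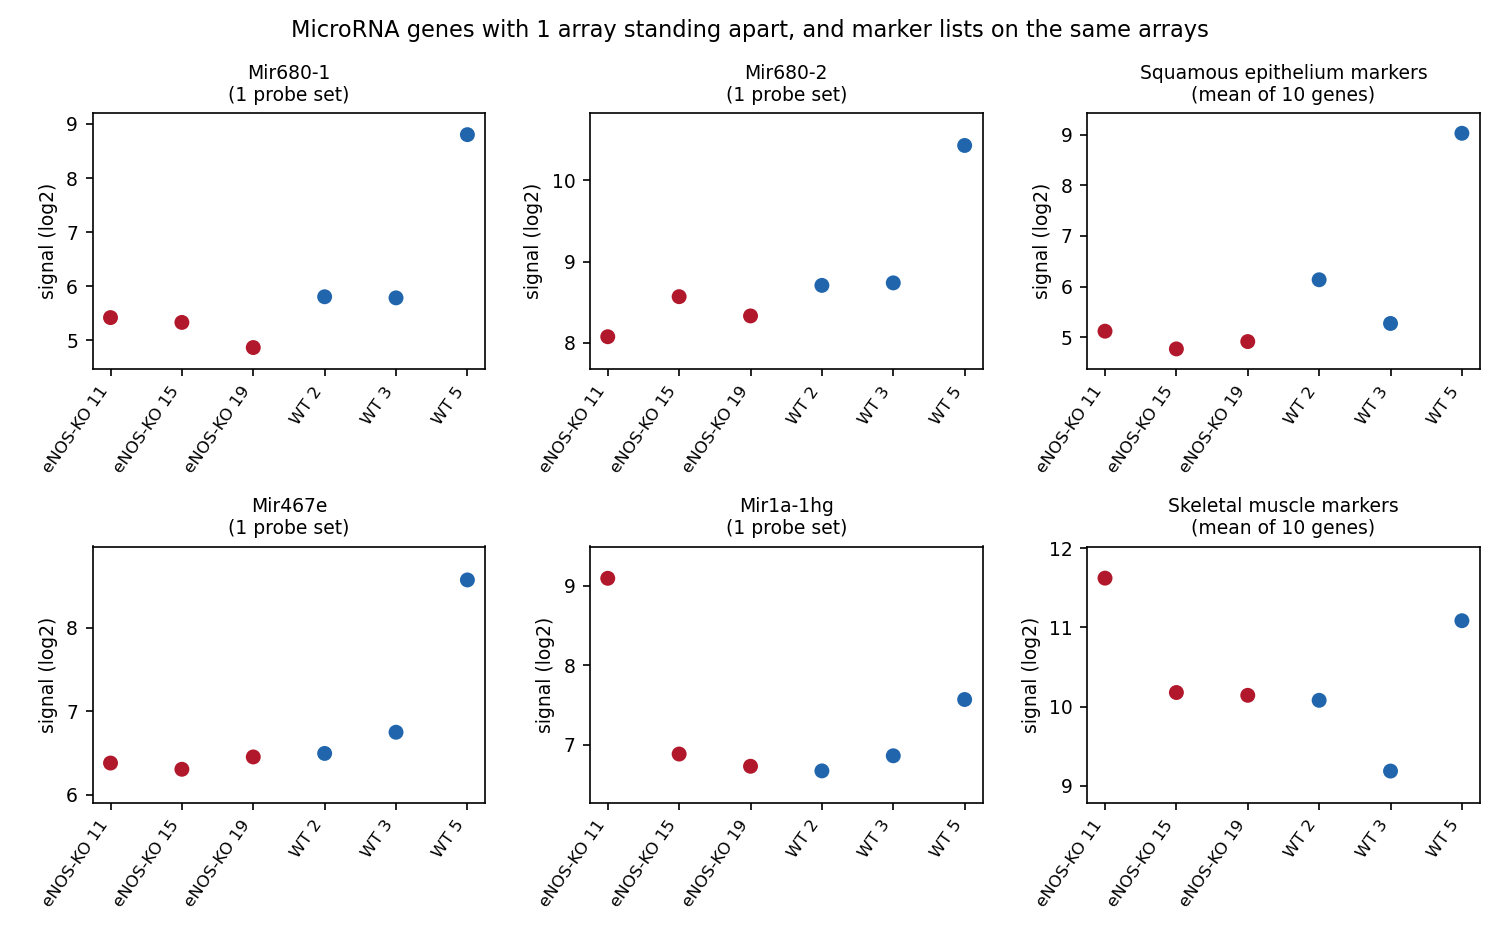
Signal (log2) on each array, eNOS-deficient (red) left of wild type (blue), for the 4 microRNA genes with an array more than 1 log2 from the next, beside the mean of 10 squamous epithelium and of 10 skeletal muscle markers. Mir680-1, Mir680-2 and Mir467e peak on wild type 5, as the epithelial markers do, and Mir1a-1hg peaks on eNOS-deficient 11, as the muscle markers do.

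The vessel wall microRNA genes named here had overlapping groups, and none passed the adjusted threshold. Mir143 measured 7.55 ± 0.16 log2 in eNOS-deficient aorta, against 7.96 ± 0.48 in wild type (difference -0.41, limma adjusted p = 0.548). Mir145a measured 7.23 ± 0.45, against 7.40 ± 0.52 in wild type (limma adjusted p = 0.880). Wild type 5 was the lowest wild-type array in both, at 7.44 and 6.81. Their noncoding host Carmn, a smooth muscle transcript, likewise stood at 8.14, 7.95 and 7.86, against 8.79, 8.25 and 7.63 in wild type. The groups overlapped for all 3. Mir23b differed by -0.37, Mir99b by 0.03 and Mir140, the cartilage microRNA inside Wwp2, by 0.28, with overlap in each. No microRNA gene of the lists for blood cells, epithelium, proliferation or let-7 reached 6 log2 through a probe set with a single symbol.

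MicroRNA genes known from fat and metabolism had differences of both signs, none past the test. Of the fat list, 5 of 12 measured genes were among the 89: Mir107 (0.35), Mir365-2 (0.36), Mir378a (0.16), Mir193b (-0.11) and Mir365-1 (-0.13). All had overlapping groups and an adjusted p of at least 0.675 in limma. Mir378a, inside the metabolic coactivator gene Ppargc1b, had 6.72, 6.92 and 5.90 in eNOS-deficient aorta, against 6.79, 7.20 and 5.06 in wild type, so its arrays spread by over 2 log2 within wild type. Its difference of 0.16 turned to -0.48 without wild type 5 and to -0.04 without eNOS-deficient 15. From the imprinted cluster on chromosome 12, Mir673, Mir665, Mir341, Mir329 and Mir666 differed by -0.25 to 0.04, all with overlap. The host transcripts Mir100hg and Mir99ahg differed by -0.16 and 0.03.

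The remaining genes clustered around small negative values. Of the 73 with an unadjusted p of at least 0.05, 44 were negative and 29 positive, with a median of -0.08. Among the negative ones with overlapping groups, Mir505 had 8.48, 9.26 and 9.36 in eNOS-deficient aorta, against 9.73, 9.68 and 9.30 in wild type, so that eNOS-deficient 11 alone was low. Mir181d measured 6.94 ± 0.26 in eNOS-deficient aorta, against 7.34 ± 0.20 in wild type, and Mir181c, which shares its seed, 6.42 ± 0.18 against 6.71 ± 0.53 in wild type. Mir99a differed by -0.30 and Mir99b, with a seed in common, by 0.03. Mir344d-2 (-0.49), Mir1943 (-0.46), Mir340 (-0.38), Mir1198 (-0.38), Mir1195 (-0.36) and Mir874 (-0.33) were negative too, all with overlap. Of the 12 genes with the highest means, 10 had a negative difference, with a median of -0.35 over the 12. At an unadjusted p under 0.05, 3 of the 12 were lower, where 3.72% of all genes were. Those not yet described were Mir692-1 with 10.33 ± 0.27 in eNOS-deficient aorta, against 10.20 ± 0.067 in wild type, and Mir5125 with 9.96 ± 0.18 against 10.13 ± 0.57 in wild type. Mir5123 had 8.93 ± 0.23 in eNOS-deficient aorta, against 9.04 ± 0.44 in wild type, and Mir1956, inside the translation factor gene Eif4e, 8.38 ± 0.11 against 8.42 ± 0.37 in wild type. The groups overlapped in these 4 genes. Several genes were nearly level between genotypes, such as Mir1963 with 6.26 ± 0.11 in eNOS-deficient aorta, against 6.27 ± 0.047 in wild type, and Mir2137 with 7.75 ± 0.16 against 7.74 ± 0.43 in wild type. By mean level, the median difference was -0.34 in the 15 genes at or above 8 log2 (4 lower at an unadjusted p under 0.05). It was -0.26 in the 24 from 7 to 8 log2 (4 lower) and -0.08 in the 50 from 6 to 7 log2 (8 lower). Over all genes, 3.72% were lower at that p.

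The 29 positive differences were small or variable. Their median was 0.16, and the lowest unadjusted p among them was 0.104, for Mir1933 (0.38). The highest difference, 0.75, belonged to Mir1904, inside the phosphodiesterase gene Pde4d, with 7.49, 6.59 and 6.04 in eNOS-deficient aorta, against 6.53, 5.99 and 5.37 in wild type. Its groups overlapped, and the difference was 0.35 without eNOS-deficient 11.

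**Figure D5:**
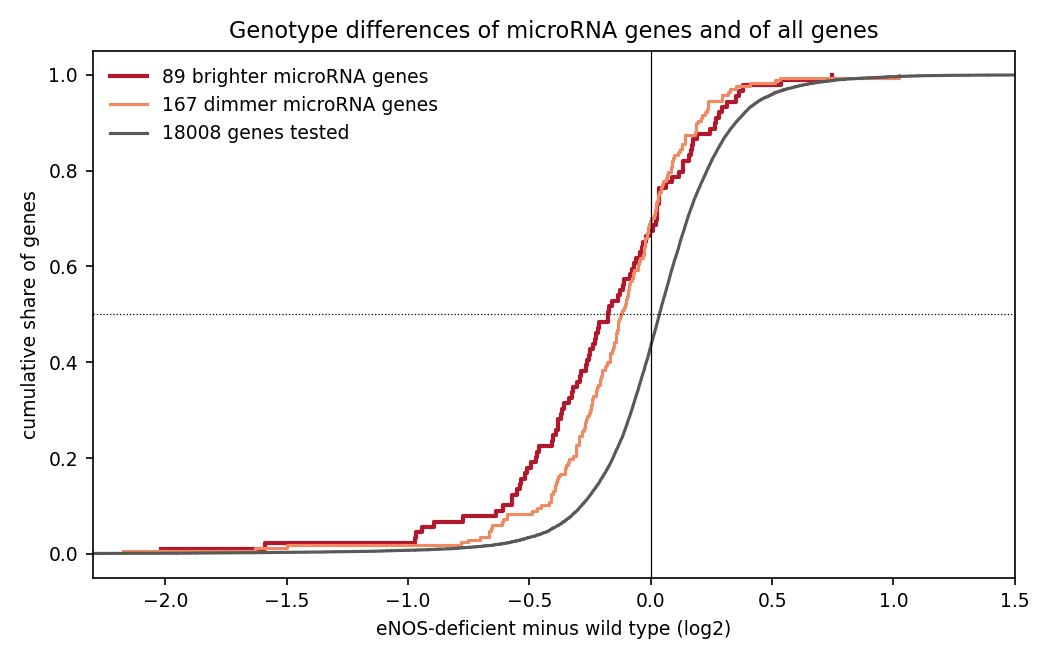
Cumulative share of genes by eNOS-deficient minus wild-type difference (log2, with the most extreme genes outside the axis) for 89 brighter microRNA genes (red), 167 dimmer microRNA genes (orange) and all 18008 genes tested (grey). The curves cross the middle at -0.18, -0.12 and 0.04.

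The machinery that makes and uses microRNAs was measured through 36 tested genes of 3 lists, and in limma 0 of them passed the adjusted threshold (lowest adjusted p = 0.246). At an unadjusted p under 0.05, 0 were lower and 1 higher, where 3.72% and 7.86% of all genes were. The higher gene was Ago4, an Argonaute protein gene, at 6.17 against 5.61 log2 in wild type (difference 0.56). The median difference over the 36 was -0.03. It was -0.04 for 11 genes of nuclear processing, such as Drosha and the exportin-5 gene Xpo5, -0.03 for 11 of cytoplasmic processing, such as Dicer1, and -0.03 for 14 of the silencing complex. The differences ran from -0.33, for the helicase gene Ddx5 (groups overlapping), to that of Ago4.

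Among the hairpins themselves, those of genes with an unadjusted p under 0.05 (8 matched) had a median GC content of 56.15%, against 53.75% in the other 54 matched. Median lengths were 89.5 and 83 bases. These are descriptions of annotated sequence and were not tested.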

How the data were processed

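RNA of 6 aorta samples (300 ng each, biotin-labelled, per the labels' protocols) was read on 1 Affymetrix array per sample. The deposited log2 values came from RMA in Affymetrix Expression Console 1.3.1, per the submitters' processing notes, and were used as deposited. No build is named by the file. RMA was not rerun, and the number of arrays limits the precision.

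Of 41345 probe sets, 23525 listed 1 gene symbol in the platform annotation, 1810 several (136 with a microRNA gene) and 16010 none. Those with several or none are not named. The brightest probe set per gene was kept, and the 18008 genes with a mean of at least 4.38 log2 (the 25th percentile over probe sets) were tested. RefSeq (GRCm38.p6) gave the positions of all 89 brighter microRNA genes relative to other genes, and the sequences of those matched.

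The comparison used limma 3.58.1 in R 4.3.3 (no trend, two-sided, no covariates) with Benjamini-Hochberg adjustment over all 18008 genes, and was tested on simulated data. Hairpins were aligned globally with Biopython 1.88, and plots drawn with matplotlib 3.10.9. The microRNA genes and the lists were chosen with earlier results of these data known. Named were the genes past the adjusted threshold, Mir130b, the 12 with the highest means, up to 8 in each direction with the smallest p under 0.05 and no overlap, list members, 3 genes on each side of the level threshold, and genes sharing a seed, a cluster or a position with these. Other genes named were picked with their values in view. Alternatives covered the dim filter, the variance model, the probe set rule, array scaling, array weights, the level threshold and each array left out in turn.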

Additional observations from a re-analysis of the deposited data

How the results depend on the processing

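No paired analysis was possible because the groups share no replicate numbers. Array weights were 0.296 for wild type 5 and 2.918 for eNOS-deficient 15, against 0.684 and 0.839 for eNOS-deficient 11 and 19. The weighted eNOS-deficient means thus rested mostly on eNOS-deficient 15, where Mir669a-3 was lowest (5.92). With these weights, 2 of the 89 genes passed the adjusted threshold (Mir301b, and Mir669a-3 with a limma adjusted p of 0.0477). An unadjusted p under 0.05 was found for 28 (31.5%), 26 lower and 2 higher. These weights raised the calls over all genes too, to 119 adjusted and 3427 (19%) unadjusted, not split by direction. The count past the adjusted threshold was 0 with no dim filter (Mir301b adjusted p = 0.0540), with probe sets averaged per gene (0.0513), with repeated quantile normalization (0.0701), and without each single array (0 to 0). With each array left out in turn, 11 to 21 genes had an unadjusted p under 0.05 (12.4% to 23.6%, against 7.53% to 14.9% of all genes), and 25 to 32 had groups that did not overlap (32 without eNOS-deficient 11). With fewer arrays to overlap, that share also grew over all genes, to 26.4% to 35.3%, against 28.1% to 36% of the 89, which is near the background. Without wild type 5 it was 34.8% of the 89 and 35.3% of all genes. Of those without overlap among the 89, 24 to 30 were lower and 1 to 5 higher. The shares over all genes were not split by direction in these settings, so these counts have no matching background. With a level threshold of 5 log2 there were 174 genes, 1 past the adjusted threshold. Of the 174, 25 had an unadjusted p under 0.05 (23 lower) and 35 no overlap (32 lower). At 7 log2 there were 39 genes, 0 past the adjusted threshold, and fewer genes enter at that level. Of the 39, 8 had an unadjusted p under 0.05 and 10 no overlap, all lower. The median of the 39 was -0.27. Over all genes tested, 11.6% had such a p (3.72% lower) and 19.5% no overlap (6.47% lower). For the 89 genes, the median stayed negative in the alternatives run, from -0.11 with median centring to -0.22 without wild type 3. In these alternatives 0 machinery genes passed, as with the main setting, where 1 had an unadjusted p under 0.05. Median centring gave 13 of the 89 genes with an unadjusted p under 0.05, all lower. In either direction 2416 of all 18008 genes had such a p, a share near that of the 89. This centring moved the median of all genes to 0.10.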
